A study of Mus musculus with 12 samples.

Results

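Genes of the interferon response and of antigen presentation were followed in RNA recovered on tagged ribosomes from the mouse retina. They were chosen by symbol: the histocompatibility genes (H2-), the Ifi, Ifit and Ifitm genes, the interferon receptors (Ifnar, Ifngr), the IRF and STAT factors, the Oas genes, the peptide transporter Tap1 and Tap2, the immunoproteasome subunits Psmb8, Psmb9 and Psmb10, and B2m, Bst2, Isg15 and Tapbp. Of 53090 gene rows, 123 had such a symbol and 75 of these had a count of at least 100 summed over the 12 libraries. The other 48 were under that count, 14 of them at 0. The choice by symbol also took in 4 genes with another kind of product and 2 named pseudogenes, which are described apart.

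Retinas of postnatal day 9 (P9, 6 libraries) were set against those of postnatal day 3 (P3, 6 libraries), in C57BL/6 mice. All mice of both ages had been injected intraperitoneally with tamoxifen on postnatal days 1 and 2, and RNA was taken after immunoprecipitation through an HA tag on ribosomes. The labels give the cell type as retinal pericytes, the mural cells of capillaries. Which promoter drives expression of the tag is not stated in the labels, and RNA from before the immunoprecipitation was not analysed here. Nothing says which libraries came from separate animals or litters, so a p-value reflects only the spread among the libraries, which may be technical.

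Interferons are secreted proteins that cells release on sensing foreign nucleic acid. Type I interferons act through a receptor made of IFNAR1 and IFNAR2, and interferon gamma through IFNGR1 and IFNGR2. The receptors' JAK kinases phosphorylate STAT proteins. A complex that holds STAT2 and IRF9 binds the interferon-stimulated response element (ISRE), and STAT dimers bind the gamma-activated site (GAS). Class I molecules, a heavy chain paired with beta-2-microglobulin, show peptides at the surface of nearly all nucleated cells. The peptides are cut by the proteasome, carried into the endoplasmic reticulum by TAP and loaded with the help of tapasin. Healthy neural retina is known for a low level of class I molecules.

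Total counts ran from 32506999 to 37776172 in P9 libraries and from 26839599 to 33514282 in P3 libraries, so a level of 1 CPM, the usual count scaled to library size, stood for 25.8 to 38.5 counts in a library. The 75 chosen rows with a summed count of at least 100 took 0.0935% to 0.118% of a library's counts. The 12 pericyte markers summed to 2814 to 6335 CPM in P9 libraries and to 359 to 1341 CPM in P3 libraries, and 10 of the 12 were higher at P9. RNA of other cells was present at both ages: 8 rod markers summed to 7288 to 14826 CPM at P9 and 1322 to 2776 CPM at P3, 10 retinal progenitor markers to 1220 to 1460 CPM at P9 and 2627 to 7470 CPM at P3, and 6 lens markers to 44.7 to 1225 CPM at P9 and 3447 to 10307 CPM at P3. In such bulk RNA, fewer cells of a type and less RNA per cell cannot be told apart. Tamoxifen was given on the same postnatal days at both ages, so P9 also differed from P3 in the time since injection. That time and age cannot be told apart here. P3 replicate 1 stood apart for epithelial and fibroblast RNA, by lists chosen after seeing the data. The 10 epithelial markers summed to 16.9 to 29.3 CPM in P9 libraries, against 1365 CPM in P3 replicate 1, 143 CPM in P3 replicate 3 and 21.4 to 30.7 CPM in the other P3 libraries. The 7 fibroblast markers summed to 215 to 359 CPM in P9 libraries, against 592 CPM in P3 replicate 1 and 102 to 168 CPM in the other P3 libraries.

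The promoters of 6 members are shown because they carry the sequence elements through which interferon signalling is known to act. The first 4 belong to genes that rose at P9 and the last 2 to classical interferon-induced genes that did not pass the test. Each run is the 160 bases before a start site in RefSeq on GRCm38.p6, 5′ to 3′ on the gene's own strand. Ifi203 and Irf1 each have a window at 2 start sites in that table; the one with a match is shown, and the other held neither element. Capitals mark each match to the ISRE core TTTCNNTTTC (GAAANNGAAA on the other strand) or to GAS, TTCNNNGAA, which reads the same on both strands.
B2m, chr2:122147527-122147686, plus strand: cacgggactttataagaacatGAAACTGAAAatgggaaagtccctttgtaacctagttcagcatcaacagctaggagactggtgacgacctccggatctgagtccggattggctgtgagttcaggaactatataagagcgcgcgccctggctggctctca
Bst2, chr8:71537473-71537632, minus strand: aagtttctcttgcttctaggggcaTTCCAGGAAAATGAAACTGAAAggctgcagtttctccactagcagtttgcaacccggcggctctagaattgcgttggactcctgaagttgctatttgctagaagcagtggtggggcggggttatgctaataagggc
Ifi203, chr1:173942493-173942652, minus strand: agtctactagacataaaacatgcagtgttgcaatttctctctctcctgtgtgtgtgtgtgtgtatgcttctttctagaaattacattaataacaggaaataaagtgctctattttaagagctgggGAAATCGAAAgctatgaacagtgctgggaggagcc
Irf1, chr11:53769854-53770013, plus strand: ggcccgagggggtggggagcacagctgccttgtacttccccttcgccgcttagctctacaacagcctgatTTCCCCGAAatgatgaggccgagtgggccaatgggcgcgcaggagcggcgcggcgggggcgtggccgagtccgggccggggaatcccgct
Isg15, chr4:156200819-156200978, minus strand: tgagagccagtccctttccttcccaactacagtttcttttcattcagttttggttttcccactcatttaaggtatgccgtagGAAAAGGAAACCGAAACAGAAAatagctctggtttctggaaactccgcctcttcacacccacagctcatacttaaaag
Ifit3, chr19:34583369-34583528, plus strand: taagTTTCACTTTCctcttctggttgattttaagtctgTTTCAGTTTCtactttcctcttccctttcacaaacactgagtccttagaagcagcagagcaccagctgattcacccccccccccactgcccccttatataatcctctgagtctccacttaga

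Counted from the start site, the ISRE core began at -139 in B2m and at -35 in Ifi203. Isg15 had 3 overlapping cores at -78, -72 and -66, and Ifit3 had 2 separate cores at -156 and -122. In Bst2, cores at -130 and -124 overlapped each other, and only the core at -130 overlapped a GAS at -136. The GAS of Irf1 lay at -90. Of the 74 member symbols, 58 had a promoter window of 300 bases (250 before and 50 after the start) in the RefSeq table. An ISRE core was found in 15 of the 58 (25.9%), against 1079 of 27025 genes with a window (3.99%), and GAS in 12 of the 58 (20.7%), against 2582 of 27025 (9.55%). A gene with several start sites counted as holding an element if any of its windows did; by window, the core stood in 15 of 69 (21.7%), against 3.44% of all windows. The ISRE core stood in 6 of the 24 members that rose at P9, in 1 of the 6 that fell and in 8 of the 27 that did not pass, so those 3 groups held it at 25.0%, 16.7% and 29.6%. GAS stood in 9 of the 24 that rose (37.5%), in 0 of the 6 that fell and in 2 of the 27 that did not pass (7.41%). These are matches of letters in a window and were not tested between the groups.

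More members rose than fell between the ages. Of the 73 members that passed the filter on low counts, 28 rose at P9 (38.4%) and 10 fell (13.7%), in edgeR's quasi-likelihood test at a Benjamini-Hochberg adjusted p under 0.05. Among all 18638 genes tested, 26.1% rose and 25.6% fell. The median log2 fold change of P9 over P3 was 0.48 over the tested members, against -0.0018 over all genes tested. In 21 members every P9 library lay above every P3 library, and in 2 every P9 library lay below, against 16.3% and 15.4% of all genes tested. The highest log2 fold change was 2.74, for Ifi203. H2-M3 and Oas1e were too low to be tested. Oas1e, at a summed count of 102.5, was just above the limit for membership and Ifit3b, at 93, just below it.

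**Figure D1:**
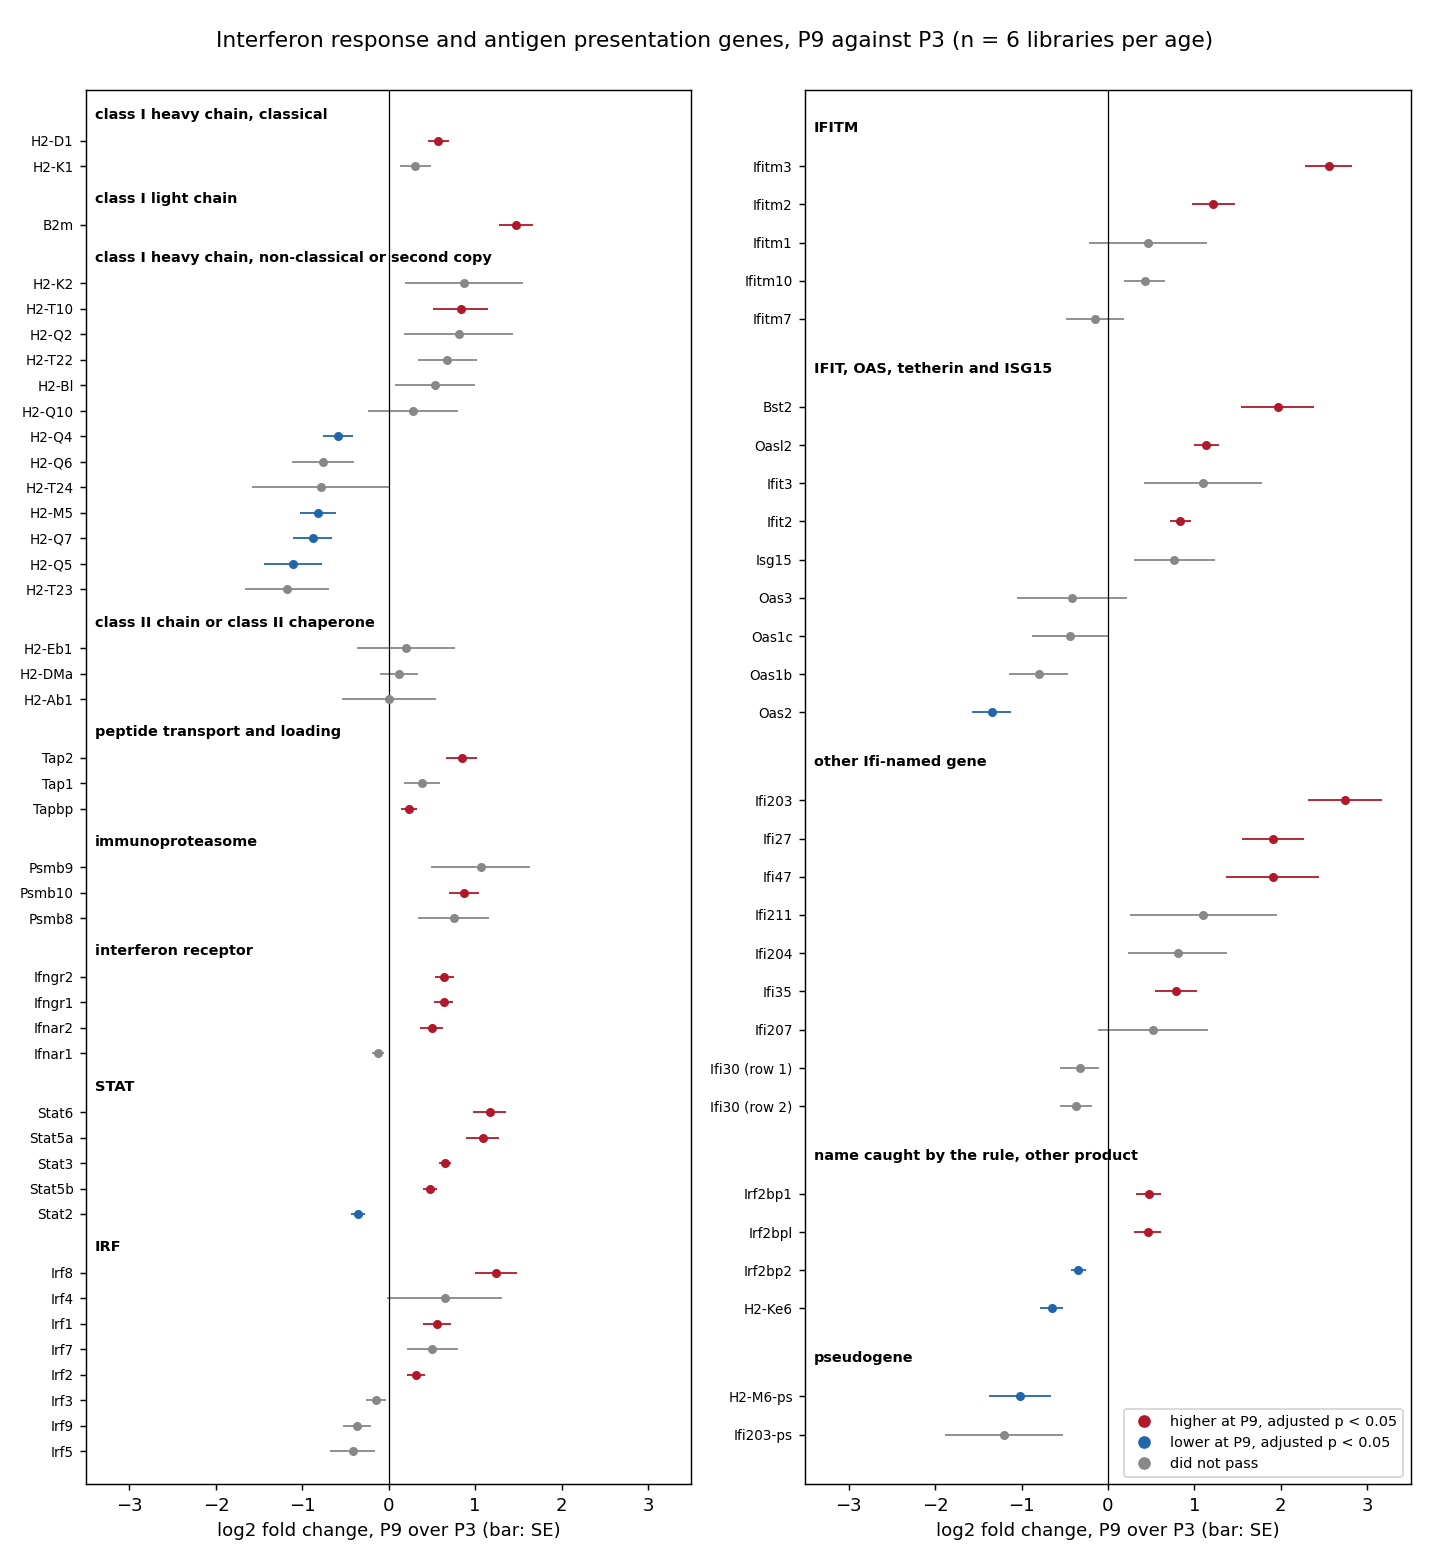
Log2 fold change of P9 over P3 (horizontal axis, bars show the standard error) for 71 of the tested members, grouped by role; red marks 27 genes higher at P9, blue 9 lower and grey 35 that did not pass. Ifi203, Ifitm3 and Bst2 reach farthest to the right, and Oas2 lies farthest to the left.

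The light chain of class I molecules and 1 of the 2 classical heavy chains rose. B2m, beta-2-microglobulin, had 27.0, 29.1, 22.8, 21.7, 21.4 and 17.3 CPM in P9 replicates 1 to 6, against 7.86, 5.64, 5.31, 11.6, 9.98 and 9.81 CPM in P3 replicates 1 to 6 (replicate numbers do not pair the ages). The ages did not overlap, and the change was 2.77-fold (log2 fold change 1.47 ± 0.19 SE, n = 6 each, edgeR adjusted p = 1.88e-05). H2-D1, one of the classical heavy chains, had 56.2 to 100.1 CPM in P9 libraries (median 70.3) and 41.2 to 51.7 CPM in P3 libraries (median 49.6). It too did not overlap, rising 1.48-fold (0.57 ± 0.12, edgeR adjusted p = 0.00115). H2-K1, the other classical heavy chain, had 9.70 to 19.2 CPM at P9 (median 11.4) and 7.76 to 13.5 CPM at P3 (median 9.89) and did not pass (edgeR adjusted p = 0.167).

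Heavy chains outside the classical pair changed in both directions. Of 13 tested, H2-M5, H2-Q4, H2-Q5 and H2-Q7 fell, H2-T10 rose and 8 did not pass, with a median log2 fold change of -0.58. The share that fell, 30.8%, was near the 25.6% of all genes tested, and the share that rose was 7.69%, against 26.1%. H2-Q7, a Qa-2 heavy chain, had 4.13 to 12.9 CPM in P9 libraries (median 7.34) and 10.2 to 15.9 CPM in P3 libraries (median 15.0), a log2 fold change of -0.88 ± 0.22 (edgeR adjusted p = 0.00415). H2-M5 had 8.87 to 18.6 CPM at P9 (median 12.1) and 15.8 to 31.4 CPM at P3 (median 21.1), at -0.82 ± 0.21 (edgeR adjusted p = 0.00424). H2-Q4 averaged 4.93 ± 0.406 CPM at P9 and 7.40 ± 1.94 CPM at P3 (SD, n = 6 each; edgeR adjusted p = 0.0108), and H2-Q5 averaged 0.969 ± 0.362 CPM at P9 and 2.10 ± 0.605 CPM at P3 (edgeR adjusted p = 0.0114). For each of these 4 the ages overlapped in at least 1 library, and H2-Q4 missed the threshold with P3 replicates 1 and 3 both left out (edgeR adjusted p = 0.0714). H2-T10 averaged 1.92 ± 0.724 CPM at P9 and 1.08 ± 0.353 CPM at P3 (edgeR adjusted p = 0.0398), a call kept without P9 replicate 3, 4 or 5 or P3 replicate 1 and lost in the other 8 single omissions. H2-Bl, which RefSeq lists as a transcribed pseudogene, H2-K2, H2-Q2, H2-Q6, H2-Q10, H2-T22, H2-T23 and H2-T24 did not pass. H2-T23 passed as lower at P9 without P9 replicate 3 or P3 replicate 4 or 5 (-1.49 to -1.28), and with all libraries in DESeq2 (adjusted p = 0.022) and limma-voom (adjusted p = 0.0279). H2-K2 passed as higher without P9 replicate 2 (1.14). H2-T24 was listed at 0 in P9 replicates 1 and 2, and at 2.20 to 4.99 CPM in the other P9 libraries and 2.62 to 5.21 CPM in P3 libraries. Its log2 fold change was -0.79 in edgeR, which did not call it, and -2.96 in limma-voom, which called it lower (adjusted p = 0.0353). All these genes lie on chromosome 17, and many are similar in sequence. The estimated counts divide reads that fit several genes by a model, so a value for one may hold reads of another. Counts of H2-D1 and H2-K1 were also not whole, so the same limit covers them.

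Genes that bring peptides to class I molecules were higher at P9 in part. Tap2, a subunit of the peptide transporter, had 4.90 to 7.40 CPM in P9 libraries (median 6.14) and 2.46 to 4.59 CPM in P3 libraries (median 3.23), with no overlap, a 1.79-fold rise (0.84 ± 0.18, edgeR adjusted p = 0.00135). Tap1, the partner subunit, had 3.38 to 4.88 CPM at P9 and 2.02 to 4.39 CPM at P3 and did not pass (edgeR adjusted p = 0.129). Tapbp, which encodes tapasin, had 28.5 to 36.6 CPM at P9 and 22.2 to 28.4 CPM at P3 without overlap. Its change was small (0.23 ± 0.09, edgeR adjusted p = 0.0415) and was lost when any of P9 replicates 1 and 6 or P3 replicates 2, 3 and 6 was left out. With all libraries, Tapbp also missed the threshold in DESeq2 (adjusted p = 0.0503) and limma-voom (adjusted p = 0.0522). It did so too without the low-count filter (edgeR adjusted p = 0.0611). Psmb10, an immunoproteasome subunit, had 5.02 to 8.35 CPM at P9 (median 6.73) and 2.91 to 4.36 CPM at P3 (median 3.61), a 1.82-fold rise without overlap (0.87 ± 0.17, edgeR adjusted p = 0.000636). Psmb8 and Psmb9, the other inducible subunits, lay at 0.504 to 2.14 and 0.186 to 1.23 CPM at P9 and at 0.426 to 0.963 and 0.120 to 0.859 CPM at P3, and neither passed (edgeR adjusted p = 0.138 and 0.133). Without P3 replicate 1, where it was highest at P3, Psmb9 rose by 1.63 (edgeR adjusted p = 0.0258).

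**Figure D2:**
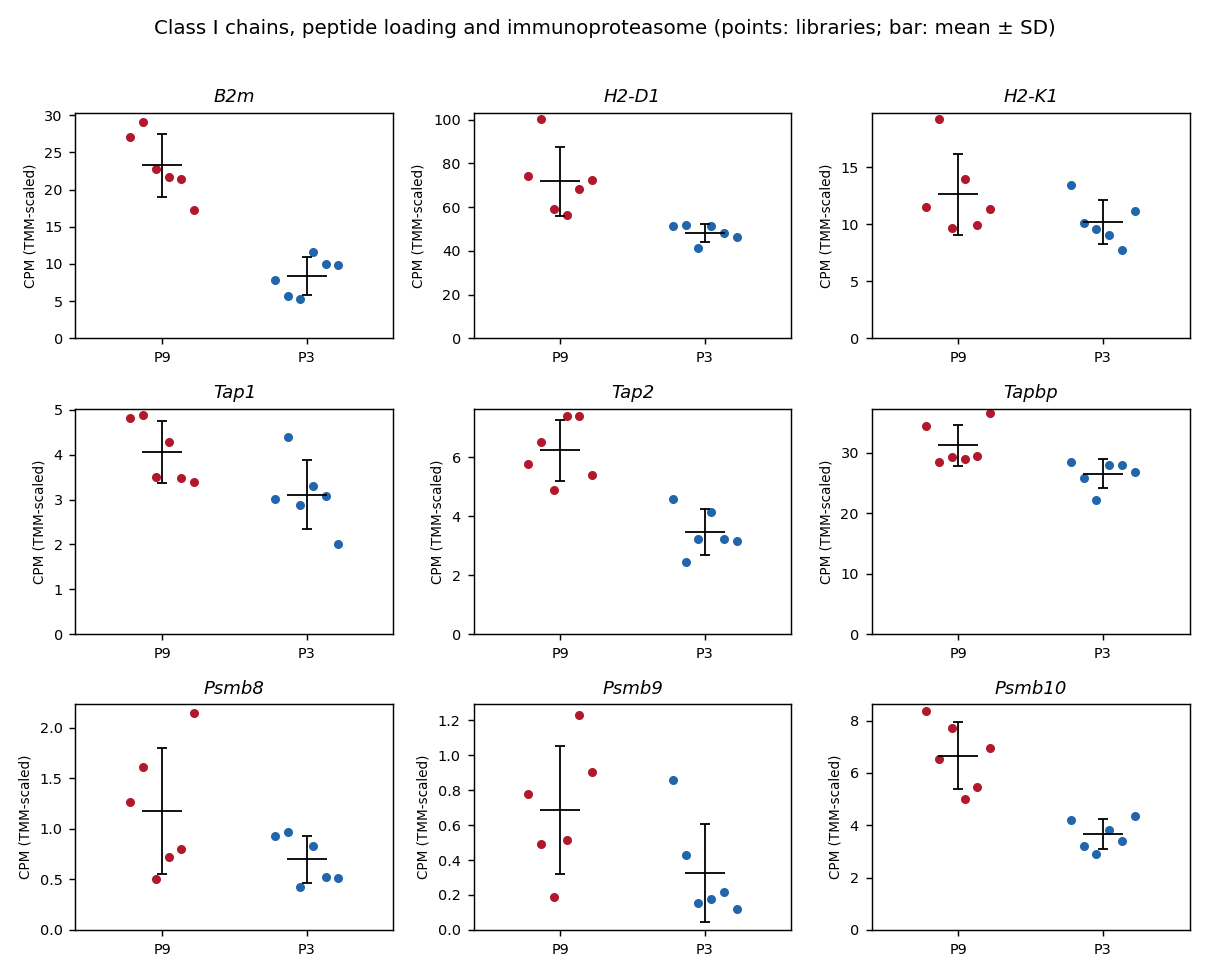
CPM (vertical axes, from 0) of 9 class I and peptide-loading genes in each of the 6 P9 and 6 P3 libraries (points), with mean ± SD (bars). B2m, H2-D1, Tap2, Tapbp and Psmb10 have no P9 library within the P3 range, while H2-K1, Tap1, Psmb8 and Psmb9 overlap.

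Other genes of antigen processing, 16 outside the chosen symbols, had 9 that rose (56.2%), 1 that fell (6.25%) and 6 that did not pass. Of all genes tested, 26.1% rose and 25.6% fell. The fall was Cd1d1, a CD1 molecule that presents lipids, at 20.8 to 31.9 CPM in P9 libraries and 80.0 to 162 CPM in P3 libraries (-2.21 ± 0.18, edgeR adjusted p = 1.97e-07). Hfe and Fcgrt, class I-like proteins that bind the transferrin receptor and immunoglobulin G, rose by 1.38 ± 0.15 and 1.92 ± 0.24 on the log2 scale (edgeR adjusted p = 2.63e-06 and 1.26e-05), to 8.43 ± 1.13 and 11.5 ± 3.51 CPM at P9, against 3.24 ± 0.415 and 3.02 ± 0.916 CPM at P3. Standard proteasome genes, 7 in all, had 1 that rose (14.3%), 0 that fell and 6 that did not pass. The rise was that of Psmb5 (0.58 ± 0.15, edgeR adjusted p = 0.00545). Among those that did not pass were Psmd4 (89.1 ± 6.03 CPM at P9, 96.0 ± 5.92 CPM at P3) and Psmb6 (79.3 ± 8.75 CPM at P9, 84.8 ± 10.2 CPM at P3).

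Class II molecules, which antigen-presenting cells use for peptides taken up from outside, showed no called change. H2-Ab1 lay at 0.151 to 2.50 CPM at P9 and 0.694 to 1.11 CPM at P3 (edgeR adjusted p = 0.998), and H2-Eb1 and H2-DMa did not pass either (edgeR adjusted p = 0.793 and 0.677). Of the activators of the histocompatibility genes, 10 tested, 2 fell and 8 did not pass. The share that fell, 20%, was near the 25.6% of all genes tested, and 0 rose, against 26.1%. Nlrc5, the known class I transactivator, had 0.259, 3.87, 0.530, 0.272, 0.770 and 0.664 CPM in P9 replicates 1 to 6, against 7.93, 57.5, 20.001, 7.01, 2.74 and 39.5 CPM in P3 replicates 1 to 6. It fell by 4.37 ± 0.82 on the log2 scale (edgeR adjusted p = 0.000398), with the highest P9 library above the lowest P3 library. Without P9 replicate 2 the log2 fold change was -5.48. The libraries with the most Nlrc5, P3 replicates 2 and 6, also had the highest lens marker sums (10307 and 8598 CPM), and P9 replicate 2 the highest lens sum of its age (1225 CPM); their part in the result was not tested. Nfyb, a subunit of a general promoter-binding factor, fell by 0.30 ± 0.08 (edgeR adjusted p = 0.0041).

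Interferon receptors rose in 3 of 4 chains (75%), against 26.1% of all genes tested. Ifngr1, the ligand-binding chain of the interferon gamma receptor, had 22.9 to 31.2 CPM in P9 libraries (median 27.0) and 13.9 to 21.1 CPM in P3 libraries (median 16.8). Ifngr2, its partner chain, had 22.7 to 26.5 CPM at P9 (median 23.7) and 12.7 to 18.8 CPM at P3 (median 15.3). The ages did not overlap for either, and both rose 1.55- and 1.56-fold (0.63 ± 0.11 and 0.64 ± 0.11; edgeR adjusted p = 0.000168 and 0.000157). Ifnar2 averaged 11.3 ± 1.04 CPM at P9 and 8.02 ± 1.51 CPM at P3, with overlap, and rose by 0.50 ± 0.14 (edgeR adjusted p = 0.00637), while Ifnar1 had 73.1 to 92.4 CPM at P9 and 82.4 to 96.8 CPM at P3 and did not pass (-0.12 ± 0.07, edgeR adjusted p = 0.158). Ifnar2, Ifnar1 and Ifngr2 lie in that order on chromosome 16, from base 91372783 to base 91564007 of GRCm38.p6.

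None of the 9 interferon genes looked for had a transcript at a level that could be compared. They were Ifna1, Ifna2, Ifna4, Ifnb1, Ifne, Ifnk, Ifng, Ifnl2 and Ifnl3, and other interferon genes were not looked for. Of these 9 ligand genes, 8 had no count in any library and Ifnb1 had 3 counts over all 12. At the summed depth of all 12 libraries, 3 counts are 0.00763 CPM, and that limit covers counting error only. Il10rb, a chain shared by the receptors of interferon lambda and of interleukin 10, had 3.32 to 7.04 CPM at P9 and 1.31 to 3.46 CPM at P3 and rose by 0.89 ± 0.26 (edgeR adjusted p = 0.00952). Ifnlr1, the chain specific to interferon lambda, had at most 0.185 CPM in a P9 library and 0.392 CPM in a P3 library and was not tested.

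Of 5 STAT genes described here, 4 rose and Stat2 fell, beside 26.1% of all genes tested that rose and 25.6% that fell. Stat3, which acts downstream of the interleukin 6 family, had 83.0 to 95.9 CPM at P9 (median 88.9) and 52.0 to 62.3 CPM at P3 (median 56.4), a 1.57-fold rise with the smallest adjusted p of all members (0.65 ± 0.07, edgeR adjusted p = 1.51e-06). Stat2, a subunit of the ISRE-binding complex, had 81.8 to 96.5 CPM at P9 (median 86.3) and 95.3 to 129 CPM at P3 (median 114), a log2 fold change of -0.36 ± 0.08 (edgeR adjusted p = 0.00208). Its lowest P3 library lay within the P9 range. Stat6, the factor of interleukin 4 signalling, rose 2.24-fold to 18.9 ± 4.09 CPM at P9, against 8.44 ± 2.56 CPM at P3 (edgeR adjusted p = 0.000159). Stat5a and Stat5b, used by many cytokine and hormone receptors, rose by 1.09 ± 0.19 and 0.48 ± 0.08 (edgeR adjusted p = 0.000234 and 0.000276). Stat5b, Stat5a and Stat3 are neighbours on chromosome 11, spanning bases 100780731 to 100939594 of GRCm38.p6, and all 3 rose without overlap of the ages. Stat4 had 8 counts in all and was under the limit.

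The kinases and feedback inhibitors of these receptors, 14 genes of which 12 were tested, had 5 that rose, 3 that fell and 4 that did not pass. The share that rose was 41.7%, against 26.1% of all genes tested. The share that fell, 25%, was near the 25.6% of all genes tested. Jak1, a kinase of both interferon receptors, had 155 to 182 CPM in P9 libraries and 93.2 to 123 CPM in P3 libraries (0.66 ± 0.08, edgeR adjusted p = 1.04e-05). Jak2, the kinase bound to IFNGR2, had 62.6 to 68.1 CPM at P9 and 79.1 to 85.4 CPM at P3 (-0.33 ± 0.05, edgeR adjusted p = 0.000162). Socs3, an inhibitor of cytokine receptor signalling, had 3.08 to 5.43 CPM at P9 and 6.19 to 15.6 CPM at P3 (-1.38 ± 0.24, edgeR adjusted p = 0.000192). The ages did not overlap for any of the 3.

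**Figure D3:**
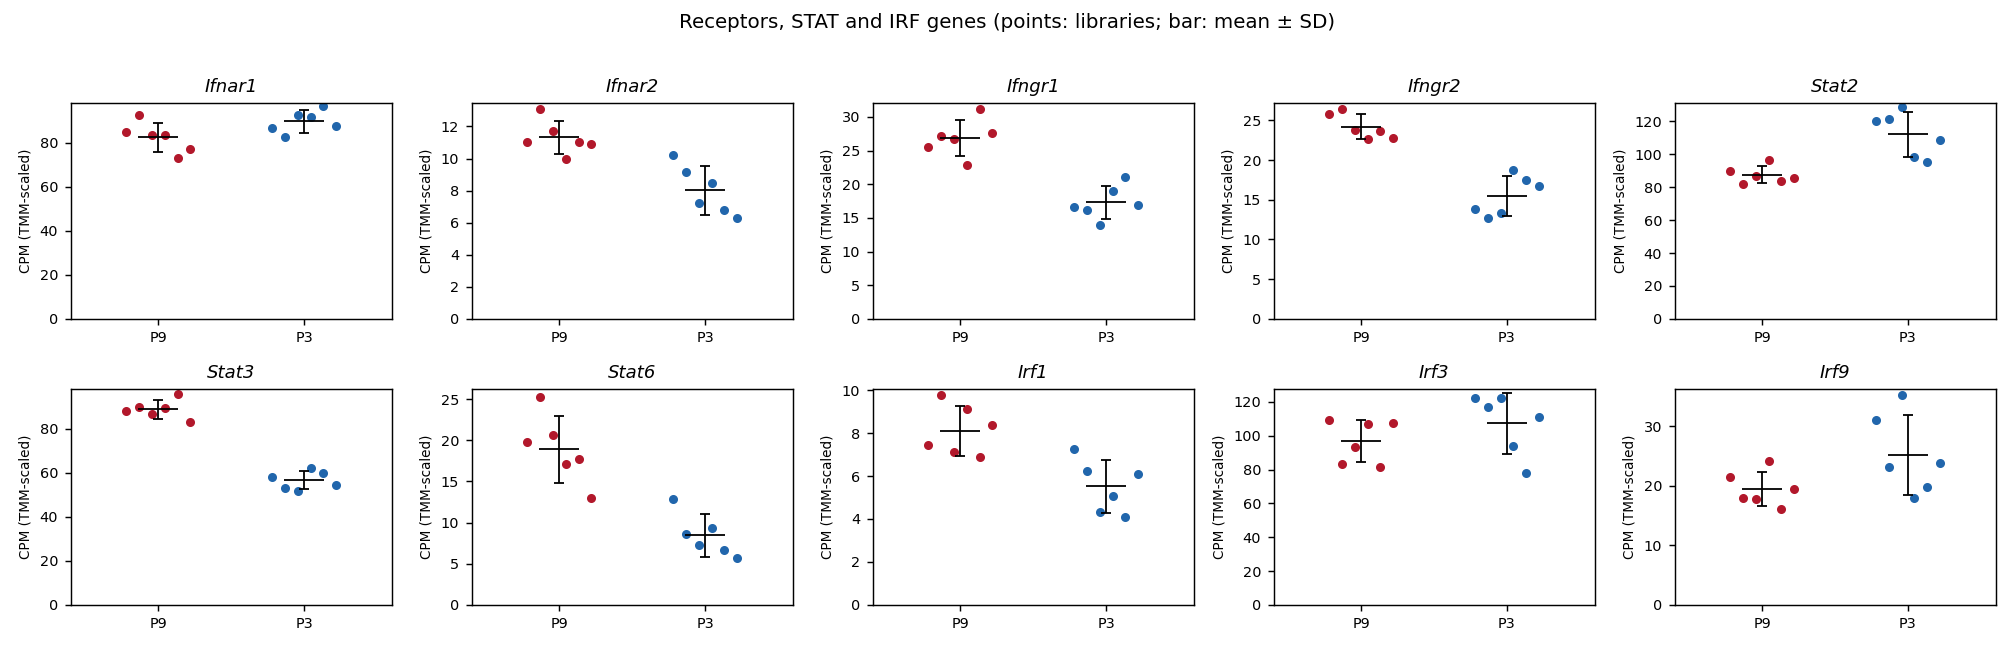
CPM (vertical axes, from 0) of receptor, STAT and IRF genes in the 6 P9 and 6 P3 libraries (points), with mean ± SD (bars). Ifngr1, Ifngr2, Stat3 and Stat6 stand higher at P9 in every library, Stat2 has a lower mean at P9, and Ifnar1, Irf3 and Irf9 overlap.

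Of 8 IRF genes described here, 3 rose and 5 did not pass, beside 26.1% of all genes tested that rose and 25.6% that fell. Irf1, induced by interferon gamma, had 6.90 to 9.76 CPM in P9 libraries (median 7.91) and 4.10 to 7.27 CPM in P3 libraries (median 5.59), a 1.47-fold rise with overlap (0.56 ± 0.17, edgeR adjusted p = 0.0111). With P3 replicates 4 and 5 left out, the 2 that lie nearest to P9 on the first principal component of all genes, it missed the threshold (0.44, edgeR adjusted p = 0.0507). Irf8, a factor of myeloid cells, had 3.83 to 8.54 CPM at P9 (median 5.30) and 1.57 to 3.30 CPM at P3 (median 2.37), a 2.36-fold rise without overlap (1.24 ± 0.25, edgeR adjusted p = 0.000637). Irf2, which competes with IRF1 for its sites, rose by 0.32 ± 0.10 (edgeR adjusted p = 0.015), a call lost with P9 replicates 5 and 6 both left out (edgeR adjusted p = 0.0777) or P3 replicates 1 and 3 both left out (0.0834). Irf3, the factor that nucleic acid sensors activate, had 81.4 to 109 CPM at P9 and 77.9 to 122 CPM at P3 (edgeR adjusted p = 0.314), and passed as lower with P3 replicates 4 and 5 both left out (-0.28, edgeR adjusted p = 0.03). Irf9, the DNA-binding subunit of the ISRE complex, had 16.1 to 24.1 CPM at P9 and 17.97 to 35.3 CPM at P3 (-0.37 ± 0.16, edgeR adjusted p = 0.065), and DESeq2 and the fits without P9 replicate 4, P3 replicate 4 or P3 replicate 5 called it lower. Irf4, Irf5 and Irf7 did not pass.

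Markers of microglia and macrophages were read beside Irf8 and the class II genes. The 19 markers summed to 76.2 to 138 CPM in P9 libraries (median 110) and 78.5 to 87.0 CPM in P3 libraries (median 83.5). Of them, 6 rose (31.6%), 1 fell (5.26%) and 12 did not pass. The share that rose was near that of all genes tested, of which 26.1% rose and 25.6% fell. The 12 dendritic and lymphoid markers summed to 7.09 to 9.37 CPM at P9 and 6.40 to 12.5 CPM at P3. Of these, 6 were tested, with 1 that rose and 1 that fell, and Cd3e, Cd3g and Ms4a1 were at or near 0. Their part in the results was not tested.

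The IFITM genes encode membrane proteins that hinder the entry of viruses. Ifitm3 had 32.1, 41.7, 26.4, 31.9, 27.6 and 23.01 CPM in P9 replicates 1 to 6, against 6.11, 2.46, 2.79, 6.21, 8.96 and 4.52 CPM in P3 replicates 1 to 6. Every P9 library was above every P3 library, a 5.86-fold rise (2.55 ± 0.27, edgeR adjusted p = 2.57e-06). Ifitm2 had 12.1 to 27.2 CPM at P9 (median 19.8) and 5.47 to 14.0 CPM at P3 (median 8.04), a 2.32-fold rise with overlap (1.22 ± 0.25, edgeR adjusted p = 0.000843). Ifitm1 had 2.11 to 6.99 CPM at P9 (median 3.72) and 0.271 to 12.6 CPM at P3 (median 1.30) and did not pass (0.46 ± 0.69, edgeR adjusted p = 0.6). Its highest P3 value was that of P3 replicate 1, and without that library it rose by 1.86 (edgeR adjusted p = 0.00372). Krt5, a basal keratin of epithelia, had at most 0.186 CPM in a P9 library, against 552 CPM in P3 replicate 1, 43.7 CPM in P3 replicate 3 and at most 0.308 CPM in the other P3 libraries; the part of epithelial RNA in the Ifitm1 values was not tested. Ifitm7 and Ifitm10 did not pass. The IFITM genes are similar in sequence and share reads by the counting model.

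**Figure D4:**
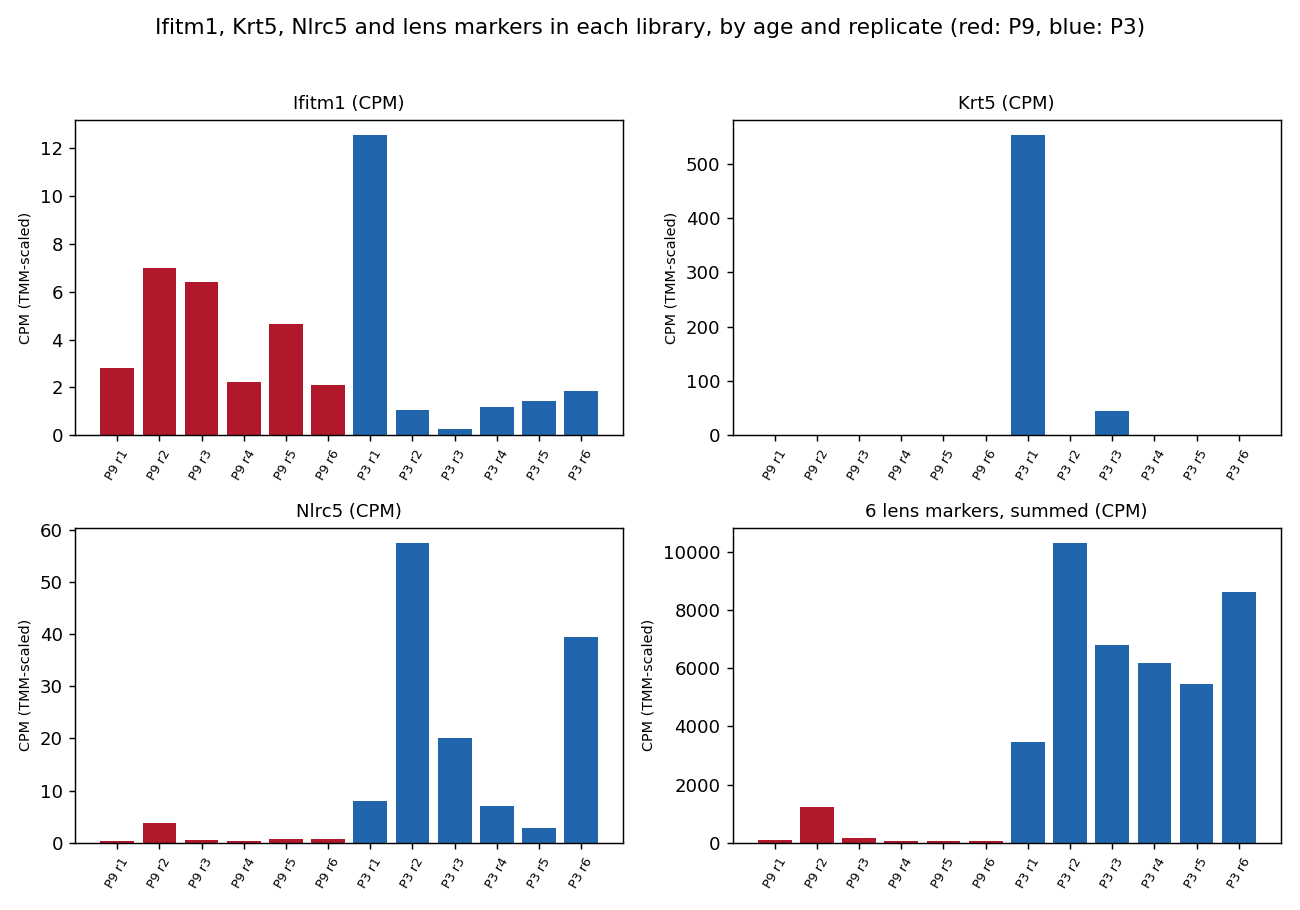
CPM (vertical axes, from 0) of Ifitm1, Krt5, Nlrc5 and the sum of 6 lens markers in each of the 12 libraries, P9 in red and P3 in blue (r1 to r6 are replicates). Ifitm1 and Krt5 are both highest in P3 replicate 1, and Nlrc5 and the lens sum are both highest in P3 replicates 2 and 6.

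Genes of the IFIT and OAS families, with Bst2 and Isg15, moved in both directions. Bst2, tetherin, which holds budding viruses at the cell surface, had 1.26 to 2.10 CPM in P9 libraries (median 1.94) and 0.107 to 0.950 CPM in P3 libraries (median 0.445), a 3.90-fold rise without overlap (1.96 ± 0.42, edgeR adjusted p = 0.00126). Oasl2, an OAS-like protein, had 8.001 to 13.7 CPM at P9 (median 10.4) and 4.54 to 5.32 CPM at P3 (median 4.91), a 2.20-fold rise (1.14 ± 0.14, edgeR adjusted p = 1.12e-05). Ifit2, which binds foreign RNA, had 11.4 to 15.8 CPM at P9 (median 12.6) and 6.21 to 8.41 CPM at P3 (median 7.10), a 1.79-fold rise (0.84 ± 0.12, edgeR adjusted p = 5.5e-05). The ages did not overlap for either.

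Oas2, an oligoadenylate synthetase that double-stranded RNA switches on, ran the other way. It had 2.71, 2.57, 2.25, 2.51, 1.08 and 2.20 CPM in P9 replicates 1 to 6, against 6.57, 6.21, 5.66, 4.04, 4.93 and 6.50 CPM in P3 replicates 1 to 6, and no P9 library reached a P3 library (-1.35 ± 0.23, edgeR adjusted p = 0.000158). Retinal progenitor markers were also lower at P9, as given above, and their part in this fall was not tested. Isg15, a ubiquitin-like modifier, had 0.616 to 1.78 CPM at P9 and 0.231 to 1.36 CPM at P3 and did not pass (edgeR adjusted p = 0.183). Ifit3, Oas1b, Oas1c and Oas3 did not pass, though Ifit3 passed as higher without P9 replicate 6 (1.36) and Oas1b as lower without P9 replicate 3 (-0.96) and in DESeq2 (adjusted p = 0.0485).

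Among the other Ifi-named genes 4 of 9 rose (44.4%), 0 fell and 5 did not pass. Of all genes tested, 26.1% rose and 25.6% fell. Ifi203, of the DNA-binding Ifi cluster on chromosome 1, had 8.29, 15.8, 9.57, 11.7, 7.83 and 6.10 CPM in P9 replicates 1 to 6, against 1.49, 1.03, 0.271, 1.63, 3.48 and 0.873 CPM in P3 replicates 1 to 6, a 6.695-fold rise without overlap and the largest of the members (2.74 ± 0.43, edgeR adjusted p = 8.29e-05). Ifi27, induced by type I interferon, had 3.20 to 7.22 CPM at P9 (median 5.41) and 0.581 to 2.81 CPM at P3 (median 1.16), a 3.76-fold rise without overlap (1.91 ± 0.36, edgeR adjusted p = 0.000386). Ifi47, an interferon-induced GTPase, and Ifi35 rose by 1.90 ± 0.53 and 0.79 ± 0.24 (edgeR adjusted p = 0.00769 and 0.0124). The level of Ifi47 was low, with a median of 0.953 CPM at P9 and 0.285 CPM at P3. Ifi204, Ifi207, Ifi211 and both rows of Ifi30, a lysosomal thiol reductase listed under 2 gene identifiers, did not pass. Without P3 replicate 2, Ifi204 passed as higher (1.47).

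**Figure D5:**
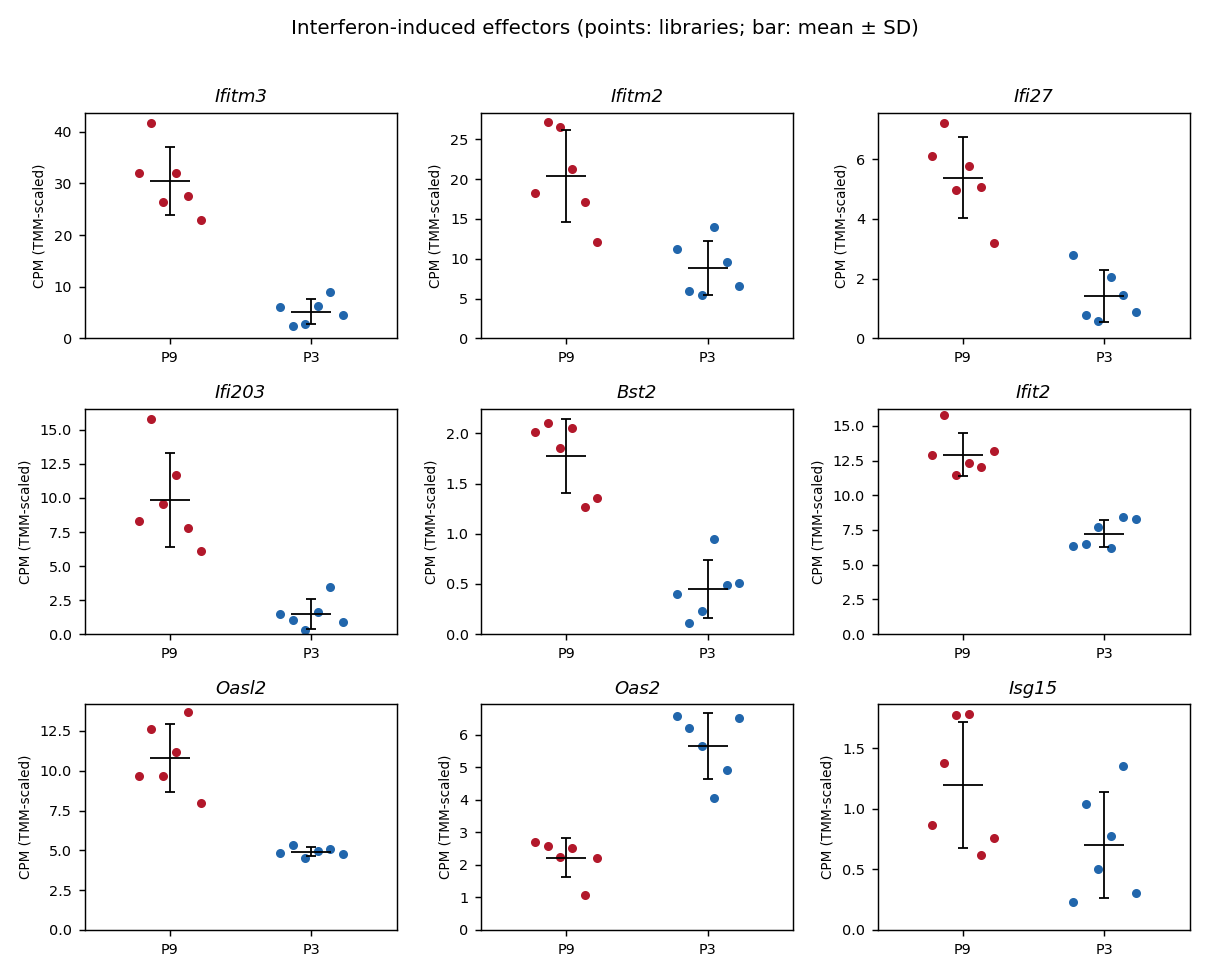
CPM (vertical axes, from 0) of 9 interferon-induced genes in the 6 P9 and 6 P3 libraries (points), with mean ± SD (bars). Ifitm3, Ifi27, Ifi203, Bst2, Ifit2 and Oasl2 are higher at P9 in every library, Oas2 is lower in every library, and Ifitm2 and Isg15 overlap.

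Further genes of the response were read from lists written out in full, beside the 26.1% of all genes tested that rose and the 25.6% that fell. Sensors of foreign nucleic acid had 14 tested: 8 rose (57.1%), 2 fell (14.3%) and 4 did not pass. Tmem173, which encodes STING, had 2.60 to 4.65 CPM in P9 libraries and 0.271 to 0.999 CPM in P3 libraries (2.20 ± 0.31, edgeR adjusted p = 3.15e-05). Myd88, an adaptor of Toll-like receptors, and Ddx58, which encodes RIG-I, rose by 1.17 ± 0.20 and 0.97 ± 0.20 (edgeR adjusted p = 0.000219 and 0.000942). Interferon-induced GTPases had 10 tested: 3 rose, a share near that of all genes, 0 fell and 7 did not pass, with Iigp1 at 1.47 to 6.28 CPM at P9 and 0.0357 to 0.524 CPM at P3 (3.56 ± 0.54, edgeR adjusted p = 6.54e-05) and Gbp7 and Irgm2 rising by 1.58 ± 0.35 and 1.56 ± 0.35 (edgeR adjusted p = 0.00141 and 0.0018). Other interferon-induced effectors had 22 tested: 8 rose (36.4%), 4 fell (18.2%) and 10 did not pass. Lgals9, galectin 9, and Lgals3bp rose by 2.26 ± 0.25 and 1.46 ± 0.22 (edgeR adjusted p = 3.44e-06 and 6.04e-05).

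Members of a different kind are set apart here. H2-Ke6, listed in RefSeq under the synonym Hsd17b8, a steroid dehydrogenase of the histocompatibility region, fell without overlap, at 47.4 to 75.3 CPM in P9 libraries (median 65.7) and 77.5 to 119.7 CPM in P3 libraries (median 99.6; -0.65 ± 0.13, edgeR adjusted p = 0.000588). Irf2bp2 fell by 0.35 ± 0.09, while Irf2bp1 and Irf2bpl, its relatives, rose by 0.47 ± 0.15 and 0.46 ± 0.16 (edgeR adjusted p = 0.00354, 0.0149 and 0.0232). Irf2bpl missed the threshold without P9 replicate 3 or P3 replicate 1, 2 or 6, and Irf2bp1 with P9 replicates 5 and 6 or P3 replicates 1 and 3 left out in pairs (edgeR adjusted p = 0.0846 and 0.0866). Of the pseudogenes, H2-M6-ps fell (-1.02 ± 0.36, edgeR adjusted p = 0.0267), a call lost without P9 replicate 2 or 5 or P3 replicate 3 or 5. Ifi203-ps did not pass, except as lower without P3 replicate 3 (-1.46).

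Within each age the risen members were unevenly high across libraries, and the pericyte marker sums are given beside them. P9 replicate 2 held the highest P9 value of 16 of the 28 risen members and P9 replicate 6 the lowest of 10, and their pericyte marker sums, 6335 and 2814 CPM, were the highest and lowest at P9. P9 replicate 4 was lowest in 8, with a pericyte sum of 4585 CPM, above the P9 median of 4351 CPM. At P3, P3 replicate 4 was highest in 10 of the 28 and P3 replicate 3 lowest in 10, with pericyte sums of 1207 CPM, the next to highest, and 359 CPM, the lowest at P3. P3 replicate 5, with the highest pericyte sum at P3 (1341 CPM), was highest in 6 and lowest in 1. P3 replicate 1 was highest in 7 and P3 replicate 2 lowest in 8, with nearly equal pericyte sums of 595 and 594 CPM. How often each library was highest or lowest was not counted over all genes tested. Erythroid markers were also highest in P9 replicate 2, at 1134 CPM against 128 to 478 CPM in the other P9 libraries. Markers of other vascular and glial cells also moved. The 6 smooth muscle markers summed to 98.6 to 252 CPM at P9 and 15.3 to 67.7 CPM at P3 without overlap, and all 5 that were tested rose. Of the 12 endothelial markers 6 rose, 1 fell and 5 did not pass, with a median log2 fold change of 1.06. Their sum ran the other way, at 724 to 840 CPM at P9 and 903 to 1048 CPM at P3, since Kdr, the one that fell, made up most of it (603 ± 30.7 CPM at P9, 926 ± 79.5 CPM at P3). The 6 astrocyte markers summed to 403.02 to 516 CPM at P9 and 256 to 400.2 CPM at P3, and 3 rose, 1 fell and 2 did not pass. Of 8 Mueller glia markers 4 rose, 1 fell and 3 did not pass, with sums of 1519 to 2065 CPM at P9 and 1205 to 1721 CPM at P3. Beside these marker counts, 26.1% of all genes tested rose and 25.6% fell. The part of these cell types in the rise of the members was not tested.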

How the data were processed

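The authors deposited 1 table of expected counts for each of 6 P9 and 6 P3 libraries; these estimated counts are unscaled, and 15.9% are not whole. The submitters' processing notes name the build mm10 and the tools RSEM, STAR, Trim Galore, FastQC and limma, without versions; the annotation is not stated. A stranded kit was used, per the labels' protocols. RSEM estimates divide reads among similar genes, which leaves H2-D1, H2-K1 and the H2-Q, H2-T, Ifitm, Ifi and Oas1 families less certain.

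Counts were rounded, low genes removed by filterByExpr (34452 removed, 18638 tested), libraries scaled by TMM, and P9 set against P3 by edgeR's quasi-likelihood test (edgeR 4.0.16, R 4.3.3); p-values were adjusted by Benjamini-Hochberg across every tested gene, with 0.05 as the threshold. Log2 fold changes are P9 over P3; the standard error is the absolute change over the square root of F. CPM is TMM-scaled. Levels were not compared between genes, since no lengths were used. Other fits used DESeq2 1.42.0 and limma 3.58.1 (voom). The procedure was tested on simulated data.

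Groups came from the labelled age, and replicates were numbered in deposition order. The members, marker and pathway lists and the rule for named genes (a fixed set of 25, in each direction the called members of lowest adjusted p, every other member by role, and up to 3 genes per pathway list) were chosen with earlier results of these data known. The epithelial and fibroblast lists were chosen after seeing the data. Some genes that the rule names are not reported here. All 75 members matched RefSeq by symbol.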

Additional observations from a re-analysis of the deposited data

Results flagged for a closer look

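Among 146 sets of 6 values (the members reported singly, at each age), 10 had a highest or lowest library whose gap to the next, divided by the range, passed Dixon's 95% critical value for 6 samples. Chance flags about 1 in 20. P3 replicate 1 was the high library in 2 of them: Ifitm1 (12.6 CPM, against 0.271 to 1.84 CPM in the other P3 libraries; ratio 0.873) and H2-T23 (6.80 CPM, against 2.08 to 3.64 CPM; 0.67). That library also had the highest epithelial and fibroblast marker sums, whose part was not tested. P9 replicate 1 was high for H2-Ab1 (2.50 CPM, against 0.151 to 0.795 CPM; 0.726) and H2-Q2 (0.864 CPM, against 0.242 to 0.451 CPM; 0.664). P9 replicate 5 was low for Oas2 (1.08 CPM, against 2.20 to 2.71 CPM; 0.691) and high for H2-Bl (1.08 CPM, against 0.239 to 0.519 CPM; 0.666), and P9 replicate 6 was low for Ifi204 (0.332 CPM, against 0.777 to 1.03 CPM; 0.635). At P3, replicate 2 was high for Stat5b (33.8 CPM, against 27.6 to 29.8 CPM; 0.653), replicate 5 low for H2-Bl (0.123 CPM, against 0.321 to 0.426 CPM; 0.653) and replicate 3 at 0 for Ifi203-ps, against 0.616 to 0.891 CPM (0.691).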

How the results depend on the processing

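Of 36 called members followed singly, 32 kept the call in all 12 fits without 1 library (exceptions H2-M6-ps, H2-T10, Irf2bpl and Tapbp), and 28 kept it under each of the 22 alternatives in which they were tested, other than the stricter threshold; H2-Q4, Irf1, Irf2 and Irf2bp1 lost it, that threshold aside, only where 2 libraries were left out together. Without each library in turn, 25 to 29 members rose and 8 to 12 fell. With genes of at least 10 CPM only, 24 members were tested, of which 15 rose and 5 fell, since fewer were tested. At an adjusted p under 0.01, 21 rose and 6 fell. Of the 35 members not called, 26 were called in none of the single omissions. Members under about 1 CPM rest on few counts, which limits what can be seen in Psmb9, Isg15, Ifit3, H2-Ab1 and H2-Eb1. The same limit covers called members. Among them, Ifi47 had a median of 0.953 CPM at P9 and 0.285 CPM at P3. The median was 0.445 CPM at P3 for Bst2 and 0.957 CPM at P9 for H2-Q5. No paired analysis was possible because no replicate number in the labels is shared between the ages.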
